A study of Mus musculus with 6 samples.

Results

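Amino acid transporters of mouse kidney were followed in 6 RNA libraries, as the rows of the gene table whose symbols belong to the solute carrier families Slc1a, Slc3a, Slc6a, Slc7a, Slc36a, Slc38a and Slc43a. The rule, which left out Slc6a6 and Slc6a12, took 62 of 24346 rows. Of these, 3 (Slc7a6os, Slc36a1os and Slc6a19os) are genes named for the opposite strand and encode no transporter, and they are described apart from the 59 transporter genes. All libraries came from C57BL/6 mouse kidney, 3 of them from mice with an operation labelled IVCC, an abbreviation left unexplained, and 3 from sham-operated mice. Renal congestion is the subject of the series. The sources used here do not give age, sex, time after surgery or animals per library, so a p-value reflects library-to-library spread, which may be technical. Levels are given as deposited, in FPKM, the sequenced fragments of a gene scaled for transcript length and for library size.

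The kidney filters amino acids freely at the glomerulus and takes nearly all of them back in the proximal tubule. A first set of carriers in the brush border moves them from the urine into the cell, and a second set in the basolateral membrane releases them to the blood. Early segments of the proximal tubule (S1 and S2) carry high-capacity transporters, and the late straight segment (S3) carries others that retrieve what is left. Several carriers work only as pairs, in which a Slc7a light chain transports and a Slc3a heavy chain, Slc3a1 (rBAT) or Slc3a2 (4F2hc), brings it to the membrane. Inherited loss of SLC3A1 or SLC7A9 causes cystinuria, loss of SLC7A7 lysinuric protein intolerance and loss of SLC6A19 Hartnup disorder. A few members carry other substrates, among them Slc6a8 (creatine), Slc6a4 (serotonin) and Slc43a3 (nucleobases).

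In IVCC the libraries held more transcript of Slc6a19 and Slc7a8, carriers of neutral amino acids in the early proximal tubule, and less of Slc6a18, Slc6a13 and Slc7a12 than any Sham library. No member passed the test, however, and the members as a whole did not lean to either side. With limma on log2(FPKM + 1), 0 of the 32 members tested had an adjusted p under 0.05, as had 0% of the 12090 genes tested, and the smallest adjusted p of a member was 0.924. At an unadjusted p under 0.05 there were 4 members (Slc6a19, Slc6a13, Slc7a8 and Slc7a12), where the share over all genes tested was 3.56%. The 3 IVCC values lay wholly above the 3 Sham values for 3 members (Slc6a19, Slc7a8 and Slc43a3) and wholly below for 4 (Slc6a18, Slc6a13, Slc7a12 and Slc38a9). Over all genes tested these shares were 4.09% above and 4.22% below. Fitted values were higher in IVCC for 16 members and lower for 16, with a median log2 fold change of -0.0068 beside -0.0082 over all genes tested, of which 48.4% were higher and 51.6% lower. The libraries differ in their sum of FPKM, from 719896 to 1118260, and without the most abundant gene, Kap, from 639071 to 932626. Scaled to a common sum, the median over all genes tested moved to 0.15 and that of the members to 0.14 (26 of 32 higher, beside 79.0% of all genes), and of the 7 members without overlap Slc43a3 and Slc6a13 stayed so. Relative to that shift the members again did not lean to either side.

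Upstream sequence is shown first for 4 members whose windows of 250 bases before a RefSeq gene start (GRCm38.p6) hold a motif tied to proximal tubule identity or to amino acid supply. The motifs searched on both strands were GTTAAT, a core of HNF1 sites, CAAAGTCCA, a site form of HNF4, and TGATGCAA, a core of the amino acid response element bound by ATF4. None of the motifs overlaps another in the windows shown, and bases within annotated exons were cut away. For 42 transporter genes, 59 RefSeq windows were matched. GTTAAT stood in 5 of these 59 windows and in 6.43% of all 32851 windows. CAAAGTCCA stood in 1 and in 0.384%, and TGATGCAA in 2 and in 0.791%. These counts were made on whole windows, before exon bases were cut away. Capitals mark the motif, or its reverse complement, in each sequence, written 5′ to 3′ on the strand of the gene. The first is Slc6a13 (chr6:121300490-121300739, plus strand, before the second of its listed starts), shown because its values did not overlap between the groups.
Slc6a13: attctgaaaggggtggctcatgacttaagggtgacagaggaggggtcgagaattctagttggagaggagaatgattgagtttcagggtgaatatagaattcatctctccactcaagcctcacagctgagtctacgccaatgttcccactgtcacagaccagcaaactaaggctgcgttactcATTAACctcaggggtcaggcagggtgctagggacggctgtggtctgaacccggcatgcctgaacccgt
The window of Slc3a1 (chr17:85028097-85028346, plus strand) is shown because this heavy chain serves both luminal light chains described next.
Slc3a1: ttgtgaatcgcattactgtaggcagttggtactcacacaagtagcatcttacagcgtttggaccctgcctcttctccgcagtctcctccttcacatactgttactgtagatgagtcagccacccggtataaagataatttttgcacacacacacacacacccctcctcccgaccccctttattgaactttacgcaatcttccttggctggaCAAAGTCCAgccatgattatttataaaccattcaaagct
Both members with TGATGCAA follow, since genes of the amino acid response are counted further on. They are Slc7a7 (chr14:54417781-54417952, minus strand) and Slc7a11 (chr3:50443615-50443863, minus strand), which holds the motif in either orientation.
Slc7a7: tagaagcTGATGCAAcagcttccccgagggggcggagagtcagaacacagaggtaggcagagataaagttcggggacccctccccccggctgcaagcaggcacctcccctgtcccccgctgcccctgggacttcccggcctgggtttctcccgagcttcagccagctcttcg
Slc7a11: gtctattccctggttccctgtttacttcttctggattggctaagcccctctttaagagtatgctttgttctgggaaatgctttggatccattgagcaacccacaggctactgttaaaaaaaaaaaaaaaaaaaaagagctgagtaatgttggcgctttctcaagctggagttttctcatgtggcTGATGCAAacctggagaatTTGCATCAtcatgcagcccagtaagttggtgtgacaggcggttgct
A match describes letters only, and these 4 genes did not share a direction. The mean of Slc7a7 was 124 FPKM in IVCC beside 109.6 FPKM in Sham. Slc7a11, the cystine and glutamate exchanger, was at or below 0.08 FPKM in every library.

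Levels spanned a wide range. Averaged over the 6 libraries, 8 of the 59 transporter genes reached 100 FPKM or more, 12 had a mean of 10 to 100, 12 a mean of 1 to 10, and 27 a mean below 1 FPKM. The 10 most abundant held 80.0% to 83.2% of the summed FPKM of the members in each library. Slc7a13 alone held 17.9% to 26.9% and Slc3a1 11.1% to 13.8%. The members together summed to 1806, 1968 and 1808 FPKM in IVCC and to 1843, 1971 and 2065 FPKM in Sham, so the group ranges overlapped. That is 0.185% to 0.273% of all FPKM in a library.

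**Figure D1:**
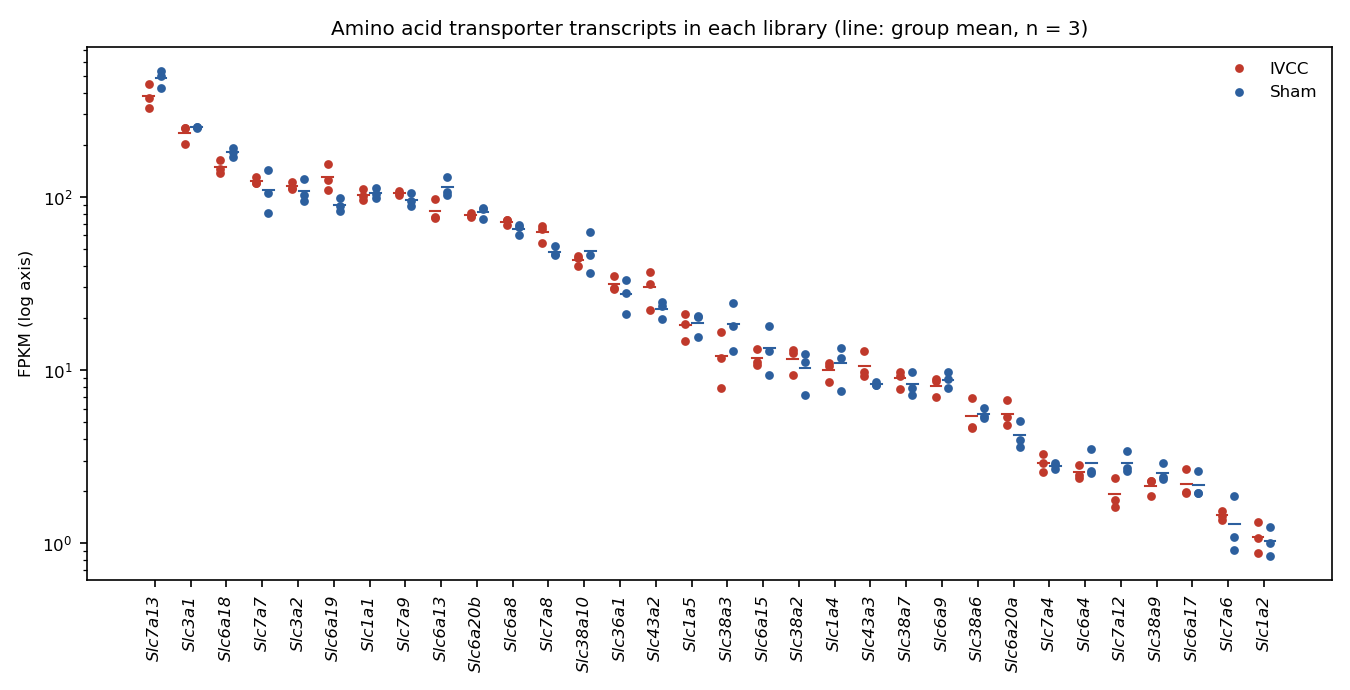
FPKM of the 32 transporter genes tested, on a log axis, in each of 3 IVCC (red) and 3 Sham (blue) libraries, with a line at each group mean. Slc7a13 and Slc3a1 lead in every library, and for 25 of the 32 genes the values of the groups overlap.

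Among the luminal carriers of the proximal tubule, Slc6a19 (B0AT1), the main sodium-coupled carrier of neutral amino acids, had the highest fitted difference. It had 126, 155 and 109 FPKM in IVCC and 83.1, 98.3 and 88.2 FPKM in Sham. Every IVCC library was above every Sham library, though not after scaling to a common sum or after quantile normalization. Its means were 129.8 ± 23.0 and 89.9 ± 7.71 FPKM (SD, n = 3 each), and the log2 fold change was 0.51 ± 0.15 (standard error, limma adjusted p = 0.924). Leaving out each library in turn gave 0.38 to 0.63. The gene lies on chromosome 13 at 73679745 to 73704865, minus strand (GRCm38).

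Slc6a18, a carrier of glycine and other neutral amino acids in the late proximal tubule, is its neighbour at 73661752 to 73678023 on the same strand, 1721 bp away. It had 137, 144 and 163 FPKM in IVCC and 169.5, 181 and 191 FPKM in Sham. The groups did not overlap and lay in the opposite order to those of Slc6a19. After scaling to a common sum or quantile normalization they overlapped. Means were 148 ± 13.7 and 181 ± 10.9 FPKM (SD, n = 3), for a log2 fold change of -0.29 (standard error 0.12, limma adjusted p = 0.924). The ratio of Slc6a19 to Slc6a18 within each library was chosen after the values were seen and so is given without a test. It was 0.918, 1.08 and 0.669 in IVCC and 0.490, 0.543 and 0.461 in Sham. Since neither gene overlapped and their orders were opposite, this ratio could not overlap and adds nothing to the 2 genes. The ratio of Slc6a19 to Slc7a13, described next, was 0.293 to 0.388 in IVCC and 0.178 to 0.197 in Sham, also without overlap.

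Slc7a13 (AGT1), the light chain that pairs with Slc3a1 in S3 and carries aspartate, glutamate and cystine, was the most abundant member. It had 324, 446 and 373 FPKM in IVCC and 422, 531 and 495 FPKM in Sham. IVCC replicate 2 lay above Sham replicate 1, so the groups overlapped. Its log2 fold change was -0.35 (standard error 0.17, limma adjusted p = 0.924). Slc7a12, a related light chain without a known heavy chain, was far lower, at 2.38, 1.61 and 1.78 FPKM in IVCC and 2.61, 2.72 and 3.41 FPKM in Sham. Here the groups did not overlap (log2 fold change -0.42, standard error 0.16, limma adjusted p = 0.924).

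The cystinuria pair is Slc3a1 and Slc7a9. Slc3a1 had 248, 249 and 201 FPKM in IVCC and 249, 251 and 254 FPKM in Sham. IVCC replicate 3 was the low one, and the other 5 lay within 6.08 FPKM of each other. Slc7a9, the light chain that carries cystine and cationic amino acids with it, had 103, 105 and 108 FPKM in IVCC and 89.0, 94.2 and 106 FPKM in Sham. The groups overlapped for both genes, with log2 fold changes of -0.12 ± 0.13 and 0.13 ± 0.11 (standard error). Slc7a9 lay higher without overlap after median ratio scaling, quantile normalization or length and GC correction, and without Sham replicate 3. After scaling to a common sum it still overlapped. Slc3a1 lay lower without overlap when IVCC replicate 2 or Sham replicate 1 was left out. The light chains Slc7a9 and Slc7a13 together gave 1.72 to 2.39 times the FPKM of Slc3a1 in IVCC and 2.06 to 2.49 times in Sham, with overlap. Of 7 such ratios computed within libraries, 4 did not overlap between the groups. The ratios were chosen with earlier results of these data known, and no share over other gene pairs was computed. Among those without overlap are ratios with Slc6a19 or Slc7a8 on top, genes that did not overlap singly. The count is therefore no result about the members.

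Slc1a1 (EAAT3), the luminal carrier of glutamate and aspartate, had 102, 111 and 96.4 FPKM in IVCC and 104, 112 and 99.0 FPKM in Sham. The 2 sets of values overlapped almost wholly, and the log2 fold change was -0.03 ± 0.11 (standard error). Slc6a20a and Slc6a20b, neighbours on chromosome 9 and mouse counterparts of the imino acid carrier SIT1, differed widely in level. Slc6a20b had 77.0 to 80.1 FPKM in IVCC and 74.3 to 86.1 FPKM in Sham, and Slc6a20a 4.79 to 6.71 and 3.62 to 5.06 FPKM. Groups overlapped for both, but the ratio of Slc6a20b to Slc6a20a was 11.5 to 16.1 in IVCC and 17.0 to 21.6 in Sham, without overlap. They are close copies, and how reads were divided between them is not given in the sources used here. Slc36a1 (PAT1), a proton-coupled carrier of small amino acids found mostly on lysosomes, had 29.2, 34.7 and 29.8 FPKM in IVCC and 28.0, 32.9 and 21.2 FPKM in Sham. Its neighbours on chromosome 11 were nearly silent, Slc36a2 at no more than 0.163 FPKM and Slc36a3 listed at 0 in all 6 libraries.

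**Figure D2:**
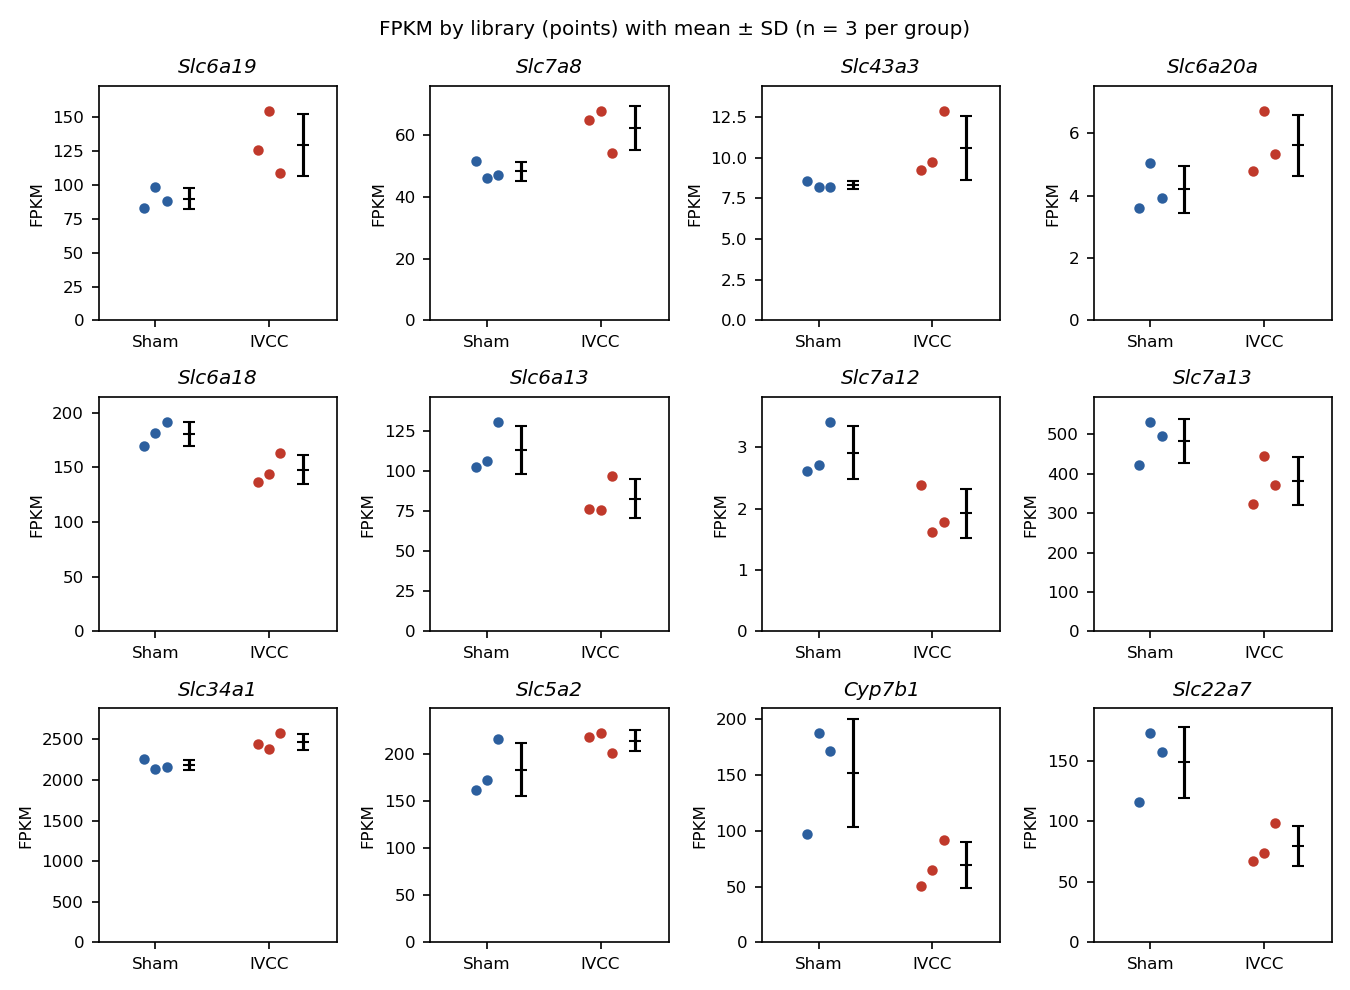
FPKM of 8 transporter genes (upper and middle rows) and 4 segment markers (lower row) in each library, with mean ± SD (n = 3 per group), on axes from 0. Slc6a19, Slc7a8 and Slc43a3 are higher and Slc6a18, Slc6a13 and Slc7a12 lower in IVCC without overlap, and Slc6a20a and Slc7a13 overlap.

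On the basolateral side, Slc7a8 (LAT2), an exchanger of neutral amino acids that pairs with Slc3a2, had 64.9, 67.8 and 54.3 FPKM in IVCC and 51.7, 46.0 and 47.0 FPKM in Sham. The lowest IVCC library lay just above the highest Sham library, and the groups overlapped after scaling to a common sum or quantile normalization. Means were 62.3 ± 7.12 and 48.2 ± 3.06 FPKM (SD, n = 3), and the log2 fold change was 0.36 (standard error 0.12, limma adjusted p = 0.924). Slc43a2 (LAT4), which lets branched-chain and aromatic amino acids out of the cell, had 31.5, 36.8 and 22.3 FPKM in IVCC and 23.4, 24.8 and 19.7 FPKM in Sham. IVCC replicate 3 fell among the Sham values. The log2 fold change was 0.38 (standard error 0.19), with 0.23 when IVCC replicate 2 was left out and 0.57 when IVCC replicate 3 was.

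Slc7a7 (y+LAT1), the exporter of cationic amino acids, had 130.4, 121 and 119 FPKM in IVCC and 105, 80.8 and 143 FPKM in Sham, where the spread was wider. Slc3a2, the heavy chain of both exchangers, had 121, 111 and 112 FPKM in IVCC and 103, 95.1 and 126 FPKM in Sham. Both overlapped between the groups, at log2 fold changes of 0.21 ± 0.20 and 0.10 ± 0.14 (standard error), and both moved with the library left out. Without Sham replicate 2 the values were 0.010 for Slc7a7 and 0.010 for Slc3a2. Leaving out Sham replicate 3 gave 0.42 and 0.21, with both genes higher in IVCC without overlap, and Slc3a2 was at 0.054 and 0.064 without IVCC replicate 1 and Sham replicate 1. Slc7a7 also lay higher without overlap after scaling to a common sum, and Slc3a2 after quantile normalization. The ratio of Slc7a7 plus Slc7a8 to Slc3a2 within a library was 1.55 to 1.71 in IVCC and 1.33 to 1.53 in Sham, without overlap and given without a test. Slc7a6 (y+LAT2) was low, at 1.36 to 1.54 FPKM in IVCC and 0.920 to 1.88 FPKM in Sham.

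Slc6a13 (GAT2), a basolateral carrier of GABA and related compounds, lay lower in IVCC without overlap. It had 76.0, 75.7 and 96.6 FPKM in IVCC and 103, 106 and 130.4 FPKM in Sham. No IVCC library reached the lowest Sham library. The log2 fold change was -0.45 (standard error 0.15, limma adjusted p = 0.924). Slc38a3 (SNAT3), which brings glutamine into the cell for ammonia formation, had the largest fitted difference of the members tested, at -0.58 (standard error 0.29). Its values of 7.88, 11.7 and 16.6 FPKM in IVCC and 12.9, 17.9 and 24.5 FPKM in Sham overlapped, and the highest value was 2.11 times the lowest in IVCC and 1.90 times in Sham. Leaving out IVCC replicate 3 gave a log2 fold change of -0.83, leaving out IVCC replicate 1 gave -0.33, and leaving out Sham replicate 3 gave -0.37.

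By place, of the 9 luminal members tested (all of the 10 listed but Slc36a2) 4 had higher and 5 lower fitted values. The higher ones include Slc36a1, which was listed as luminal though found mostly on lysosomes. Of the 7 basolateral members, 5 were higher and 2 lower. Their median log2 fold changes were -0.03 and 0.12.

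**Figure D3:**
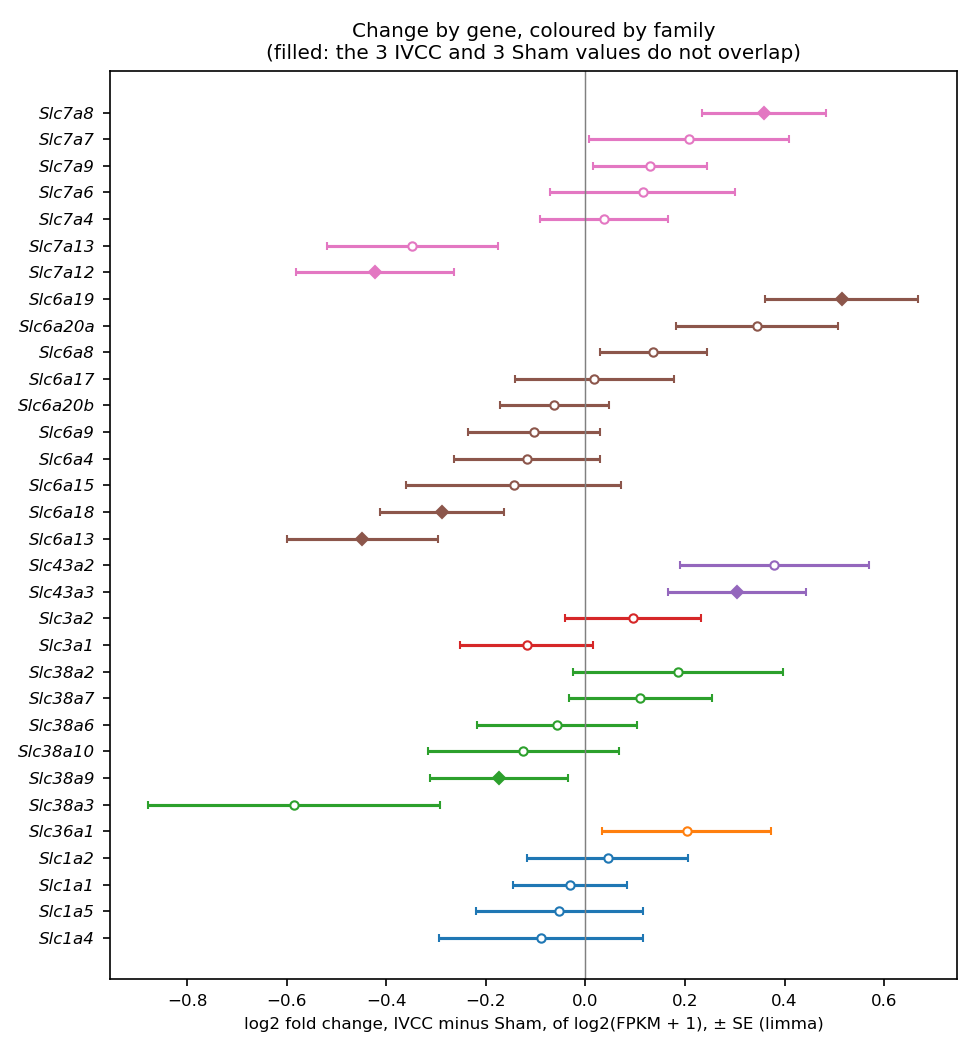
Fitted log2 fold change (IVCC minus Sham, of log2(FPKM + 1)) with its standard error for the 32 transporter genes tested, coloured by family. Filled diamonds mark the 7 genes whose groups do not overlap, and the values run from -0.58 (Slc38a3) to 0.51 (Slc6a19).

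Family by family, on the deposited scale, no direction was shared by all the larger families. In Slc6a, 10 of 17 genes were tested, 4 with a higher and 6 with a lower fitted value in IVCC (median log2 fold change -0.08), and in Slc7a 7 of 15, 5 higher and 2 lower (median 0.12). Summed over the family, Slc7a reached 632, 749 and 664 FPKM in IVCC and 678, 763 and 801 FPKM in Sham. Most of this is Slc7a13. Of the Slc38a genes 6 of 11 were tested, 2 higher and 4 lower, and of the Slc1a genes 4 of 7, 1 higher and 3 lower.

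Summed, the Slc43a family came to 41.2, 46.9 and 35.6 FPKM in IVCC and 32.4, 33.4 and 28.4 FPKM in Sham. On this deposited scale the sums did not overlap, while those of every other family did. They were not scaled to a common library sum, so the separation may not hold there, and Slc43a2 overlapped by itself. Both tested members were higher. Slc43a3, a nucleobase carrier, had 9.22, 9.76 and 12.9 FPKM in IVCC and 8.59, 8.17 and 8.19 FPKM in Sham. The fitted log2 difference was 0.30 (standard error 0.14, limma adjusted p = 0.924), and 0.17 without IVCC replicate 3.

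Carriers of the cell's own supply showed small differences beside their errors. Slc38a2 (SNAT2), which takes up small neutral amino acids and responds to starvation, had 12.5, 13.1 and 9.31 FPKM in IVCC and 11.2, 12.4 and 7.18 FPKM in Sham. Slc1a5 (ASCT2), an exchanger of glutamine, had 14.7 to 21.1 and 15.6 to 20.5 FPKM, and its relative Slc1a4 (ASCT1) 8.53 to 10.9 and 7.58 to 13.4 FPKM. Slc6a15, a carrier of branched-chain amino acids best known from brain, had 10.7 to 13.2 and 9.36 to 18.0 FPKM, and Slc38a10 40.1 to 45.5 and 36.4 to 62.8 FPKM. All 5 overlapped between the groups. Slc38a9, the lysosomal arginine sensor that signals to mTORC1, had 1.87, 2.29 and 2.30 FPKM in IVCC and 2.43, 2.91 and 2.34 FPKM in Sham. The highest IVCC and lowest Sham values were 0.043 FPKM apart, and the log2 fold change was -0.17 (standard error 0.14), or -0.11 without IVCC replicate 1 and -0.10 without Sham replicate 2. The creatine carrier Slc6a8 had 73.2, 73.9 and 68.6 FPKM in IVCC and 66.6, 60.3 and 69.2 FPKM in Sham, with overlap. The other 8 tested genes, Slc1a2, Slc38a6, Slc38a7, Slc6a4, Slc6a9, Slc6a17, Slc7a4 and Slc7a6, had log2 fold changes from -0.12 to 0.12, and their groups overlapped.

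Of the 27 transporter genes below the filter of a mean of 1 FPKM, 6 were listed at 0 in all libraries, among them Slc36a3 and Slc38a5. Another 8 were listed at 0 in some libraries. The filter fell between Slc1a2, at a mean of 1.06 FPKM, and Slc7a1, the cationic amino acid carrier CAT1, at 0.921 FPKM. All 27 together held 0.243% to 0.400% of the summed FPKM of the members. Among them are carriers that growing cells rely on, such as Slc7a5 (LAT1), at 0.292 to 0.671 FPKM in IVCC and 0.343 to 0.542 FPKM in Sham. The steps between the lowest values put 1 read of a 3000 bp transcript at 0.0397 to 0.0591 FPKM, so the lowest of these genes rest on a few reads. An example is Slc38a8, at 0.045 to 0.050 FPKM in IVCC and 0 in Sham. A transcript listed at 0 is not shown to be absent. The opposite-strand genes overlapped between the groups as well, Slc7a6os at 14.6 to 18.4 FPKM in IVCC and 15.6 to 18.4 FPKM in Sham, Slc36a1os at 2.21 to 4.65 and 3.31 to 4.51 FPKM, and Slc6a19os below the filter at 0.364 to 0.726 FPKM over all libraries.

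Markers of the tubule segments were measured in the same libraries. All 5 S3 markers had lower fitted values in IVCC, with a median log2 fold change of -0.88. Of these, 3 lay lower without overlap, beside 4.22% of all genes tested. On the deposited scale their summed level was 347 to 480 FPKM in IVCC and 489.8 to 805 FPKM in Sham. The hydroxylase gene Cyp7b1 had 51.0, 64.7 and 91.4 FPKM in IVCC and 97.0, 188 and 171 FPKM in Sham. The organic anion transporter genes Slc22a7 and Slc22a19 had log2 fold changes of -0.88 ± 0.20 and -1.02 ± 0.21 (standard error, limma adjusted p = 0.924 and 0.905). Of the 8 markers of S1 and S2, 6 had higher and 2 lower fitted values, with a median of 0.16 and a summed level of 3815 to 4056 FPKM in IVCC and 3389 to 3730 FPKM in Sham. That separation came from Slc34a1, the phosphate carrier and the only one of the 8 without overlap. The other 7 summed to 1438 to 1479 FPKM in IVCC and 1259 to 1566 FPKM in Sham, which overlap. No marker passed the adjusted threshold. The marker sums were not scaled to a common library sum, so their separation between the groups may not hold on that scale. The part of these markers in the transporter values was not tested, and in whole kidney RNA fewer cells of a segment and less RNA per cell cannot be told apart.

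Markers of other cells of the kidney were present as the label requires. Podocyte markers (4 of 4 fitted higher) summed to 49.2 to 89.8 FPKM in IVCC and 41.0 to 43.2 in Sham, endothelial ones (5 of 5) to 85.3 to 94.9 and 76.2 to 84.0, and fibroblast ones (4 of 5) to 36.2 to 41.7 and 31.1 to 34.8. Macrophage markers (5 of 6) summed to 76.0 to 93.3 and 67.7 to 76.7 FPKM. All these sums are on the deposited scale and were not scaled to a common library sum. Thick limb, distal, principal and intercalated cell markers had medians from 0.02 to 0.08 and overlapping sums. The adipose markers Adipoq, Plin1 and Cfd were listed at 0 in all libraries. Their part in the transporter values was not tested either.

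Other genes of amino acid handling, taken from lists of the same kind, gave 0 calls at an adjusted p under 0.05 (limma). Brush border peptidases, which cut peptides into the amino acids these carriers absorb, had 4 members higher and 6 lower of 10 tested, with a median log2 fold change of -0.07. Mep1b, a subunit of the metalloprotease meprin, had 68.6, 74.0 and 94.3 FPKM in IVCC and 117, 161 and 149 FPKM in Sham, and its log2 fold change was -0.84 (standard error 0.17, limma adjusted p = 0.905). Mep1a and Ace also lay lower without overlap and Dpep1 higher. Over all genes tested, 4.22% lay lower and 4.09% higher without overlap. Among 14 partners and other carriers 7 were higher and 7 lower. Slc15a2 (PEPT2), the carrier of small peptides in the late proximal tubule, had 83.4, 72.2 and 87.3 FPKM in IVCC and 109.6, 110.4 and 135 FPKM in Sham. This log2 fold change of -0.54 ± 0.14 (standard error) had a limma adjusted p of 0.924. Tmem27 (collectrin), the partner that Slc6a19 and Slc6a18 need in the kidney brush border, had 2325 to 2619 and 2378 to 2709 FPKM, with overlap.

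**Figure D4:**
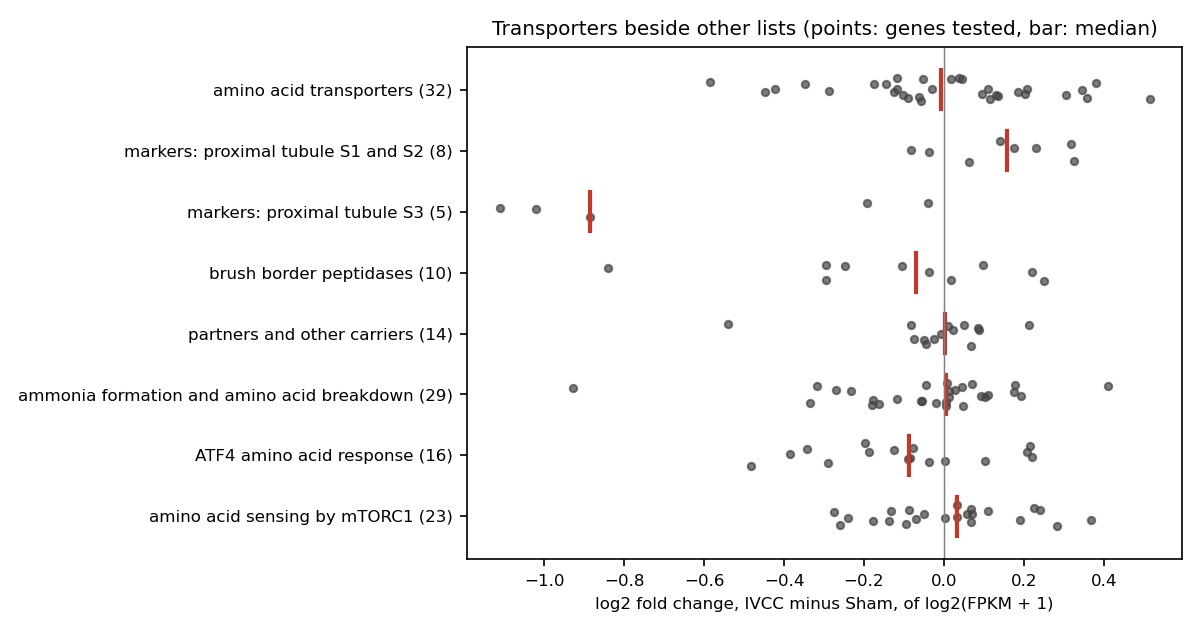
Fitted log2 fold changes (IVCC minus Sham) of the genes tested in each list, 1 point per gene, with a bar at the median. The transporters centre near 0, and the S3 markers have a median of -0.88.

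The enzymes of ammonia formation and amino acid breakdown were divided, 16 higher and 13 lower of 29 tested, with a median log2 fold change of 0.01. Arg2, a mitochondrial arginase of the late proximal tubule, was low, at 0.798, 0.676 and 1.79 FPKM in IVCC and 1.76, 3.19 and 4.02 FPKM in Sham, with overlap. In the ATF4 amino acid response 5 of 16 tested genes were higher and 11 lower, with a median of -0.09. Atf4 itself had 78.0 to 84.9 and 72.1 to 98.7 FPKM, and Asns, the asparagine synthetase gene, 2.04 to 2.58 and 2.07 to 3.55 FPKM. Of the 16, Cth and Ddit4 lay lower without overlap (log2 fold changes -0.29 and -0.34, limma adjusted p = 0.924 each) and 0 higher. Over all genes tested these shares were 4.22% lower and 4.09% higher. Below the filter, Chac1 lay higher, at 0.398 to 0.620 FPKM in IVCC and 0.119 to 0.208 FPKM in Sham. Genes of amino acid sensing by mTORC1 were 13 higher and 10 lower of 23 tested, with a median of 0.03. None of these medians was set against another by a test.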

How the data were processed

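Per the labels, mRNA libraries were made from total kidney RNA and read single-end. The authors deposited their values as FPKM, in a table of 24346 gene symbols by 6 libraries whose column names equal the sample titles. For the upstream steps the submitters' processing notes name mm10 and the tools Bowtie2 2.2.3, TopHat2 2.0.13, Cufflinks 2.2.1 and SAMtools 0.1.19, without saying what each did. FPKM carry no read totals. Spacing of values below 0.1 FPKM put the libraries at 6040000 to 7230000 nominal reads in Sham and 8030000 to 8990000 in IVCC. Only 81.1% to 85.7% of such values were whole within 0.1 read (fragment length taken as 200 bp), so depth stays unknown and no count test was run.

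The 12090 genes whose mean over the 6 libraries was 1 FPKM or more were tested two-sided with limma 3.58.1 (R 4.3.3; lmFit, then eBayes with trend) on log2(FPKM + 1), a scale that understates the change of low genes. P-values were adjusted by Benjamini-Hochberg over all of them, and the fit was checked on simulated data. With 3 libraries a group, exact permutation reaches no lower than p = 0.1 and was not used. Named members had a mean of at least 10 FPKM, groups without overlap or one of the 10 smallest p-values, or were Slc3a1, Slc3a2, Slc7a12 or Slc7a13. Members, lists and this rule were chosen with earlier results of these data known. Alternatives covered pseudocount, filter, scaling, variance model, replicate block and libraries left out. Coordinates are from GENCODE M21 on GRCm38, the assembly of mm10. Some genes are not reported here.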

Additional observations from a re-analysis of the deposited data

How the results depend on the processing

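Over the 19 other settings run, 0 members were called at an adjusted p under 0.05 (limma), and the smallest adjusted p of a member was 0.0775, in the fit with a replicate block. Over all genes, 0 were called in most settings (0 to 4 with 1 library left out). The exceptions were 2, 3, 4 and 1 without IVCC replicates 1, 2 and 3 and Sham replicate 2, 4 without the libraries numbered 3 of both groups, and 1 with the length and GC correction plus the block. The 7 members without overlap kept their fitted direction in every setting in which they were tested. Scaling to a common sum left 2 of the 7 without overlap and quantile normalization 4.

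Counts of members lower without overlap were 2 with the filter at 5 FPKM, 1 after scaling to a common sum, and 7 without the libraries numbered 3. Counts of members higher without overlap were 5 with median ratio scaling, 5 with the length and GC correction, 5 with that correction plus the block, and 9 without the libraries numbered 3. Leaving out 1 library at a time gave 3 to 7 higher and 5 to 8 lower, since fewer libraries overlap less often. Shares without overlap over all genes tested were not computed in these settings, so the counts are no result about the members. The median log2 fold change of the members was 0.14 after scaling to a common sum and -0.061 with the length and GC correction, with or without the block, and -0.015 to 0.036 with 1 library left out. Members at an unadjusted p under 0.05 numbered 7 without the libraries numbered 3, beside 1052 of all 12090 genes tested. With each of the 6 libraries left out in turn they numbered 2 to 6, beside 216 to 1030 of all genes tested. Slc6a19 stayed under 0.05 in 6 of these 6 (p from 0.00475 to 0.0476), Slc6a13 in 4 (0.00732 to 0.0765), Slc7a12 in 3 (0.0186 to 0.0877) and Slc7a8 in 3 (0.0069 to 0.080).

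The replicate block gave 10 members at an unadjusted p under 0.05, and 2388 of all genes tested beside 431 without it. With the length and GC correction as well it gave 11 members, and 1597 of the 11647 genes then tested. Deviations of the same-numbered libraries correlated at -0.11, 0.34 and 0.32 over genes. IVCC replicate 2 against Sham replicate 3 gave -0.37, and IVCC replicate 3 against Sham replicate 2 gave -0.36. Of all genes tested, 23.5% were lowest and 32.4% highest in number 3 of both groups, beside 12.5% and 15.6% of the members tested. As deviations in a group cancel, the correlations mostly restate number 2 against 3. No expected share was computed. Whether the numbers mark pairs was not given or tested. Signs turned only for members with small differences. After scaling to a common sum the log2 fold change was 0.14 for Slc1a1, 0.12 for Slc1a5, 0.070 for Slc1a4, 0.049 for Slc38a10, 0.058 for Slc3a1, 0.11 for Slc6a20b and 0.016 for Slc6a15. After quantile normalization it was 0.073 for Slc1a1, 0.026 for Slc3a1 and 0.043 for Slc6a20b, and without the libraries numbered 3 it was 0.055 for Slc38a10. With 1 library left out Slc1a1 ranged from -0.084 to 0.015, Slc1a5 from -0.18 to 0.083, Slc1a4 from -0.31 to 0.063, Slc38a10 from -0.31 to 0.075, Slc38a2 from -0.027 to 0.33 and Slc6a15 from -0.36 to 0.077. Without a change of sign, Slc36a1 ranged from 0.037 to 0.34, Slc7a9 from 0.075 to 0.20, Slc3a1 from -0.17 to -0.016, Slc6a20a from 0.23 to 0.46, Slc6a20b from -0.13 to -0.024 and Slc6a8 from 0.080 to 0.18. The cause was not tested. The length and GC corrections were added after the data had been seen and reached 96.3% of the genes tested. Depth is unknown, and the lowest of the genes below 1 FPKM rest on a few reads.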
